A study of Mus musculus with 11 samples.

Results

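Small nuclear RNAs (snRNAs) and small nucleolar RNAs (snoRNAs) are short structured RNAs that work inside RNA-protein particles. The genes described here are the entries of the deposited expression table whose Ensembl mouse identifier has the type snRNA or snoRNA in the GENCODE release 21 mouse annotation, with a value of at least 10 in 2 or more libraries. They number 120, of which 40 are snRNA and 80 are snoRNA genes. The table listed 207 entries of these types (65 snRNA and 142 snoRNA) among 22104 entries in all, and 14729 entries reached the same minimum and were tested. The libraries came from primary myoblasts, cultured muscle precursor cells, that the labels assign to TA muscle of C57BL/6 mice aged about 8 weeks. Cells were wild-type or Bmal1-/- (called knockout below), and spent 6 h at 21% oxygen (normoxia) or at 1% oxygen (hypoxia), after which total RNA was extracted. The groups were wild-type normoxia with 2 libraries, and wild-type hypoxia, knockout normoxia and knockout hypoxia with 3 libraries each. All groups shared 1 medium, based on Ham's F-10 and supplemented with FBS and bFGF, and a stranded total RNA library kit. Neither the deleted part of Bmal1 nor the origin of replicate libraries (separate mice, or separate cultures) is stated in the labels. P-values therefore judge a difference between groups only against how much libraries differed within groups, a spread that may be technical. Because RNA came from bulk cultures, fewer cells of a type and less RNA per cell cannot be told apart.

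The snRNAs U1, U2, U4, U5 and U6 form the core of the spliceosome: U1 pairs with the start of an intron, U2 with its branch point, and U5 with the exon ends, while U11 and U12 serve the rare minor class of introns. Most snRNAs carry a ring of Sm proteins on a short uridine-rich site. Box C/D snoRNAs guide 2'-O-methylation and box H/ACA snoRNAs guide pseudouridylation of ribosomal RNA, many being cut from introns of host genes, and a few, such as U3, act in cleavage of the ribosomal RNA precursor instead. Bmal1, listed as Arntl, encodes a transcription factor of the circadian clock.

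The sequences below are those on which the results turn. They are RNA-sense strands, with T for U, of the GENCODE release 21 transcripts on GRCm38, the same assembly as the mm10 build of the files. The first set shows near-identical copies, whose reads cannot be told apart over most of their length. Gm22614 differs from the U1 gene Rnu1b2 at 1 base, and Gm24497 differs from the U2 gene Rnu2-10 at 2 bases. In Rnu1b2 (chr3:96374021-96374185, plus strand) and Rnu2-10 (chr11:101658238-101658428, plus) capitals mark the letters ATTTNTGG, a form of the Sm site. In Gm22614 (chr3:96488729-96488893, plus) and Gm24497 (chr1:72244213-72244403, plus) capitals mark the differing bases.
Rnu1b2: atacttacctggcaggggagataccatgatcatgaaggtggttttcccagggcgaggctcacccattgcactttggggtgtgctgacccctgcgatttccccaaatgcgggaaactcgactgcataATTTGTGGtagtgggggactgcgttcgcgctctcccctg
Gm22614: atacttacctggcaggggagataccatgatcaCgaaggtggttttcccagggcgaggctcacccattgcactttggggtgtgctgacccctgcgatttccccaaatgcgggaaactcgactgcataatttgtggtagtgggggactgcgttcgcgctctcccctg
Rnu2-10: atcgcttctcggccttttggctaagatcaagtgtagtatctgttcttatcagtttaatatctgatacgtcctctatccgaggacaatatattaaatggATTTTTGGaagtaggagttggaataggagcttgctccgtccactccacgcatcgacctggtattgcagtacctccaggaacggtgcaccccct
Gm24497: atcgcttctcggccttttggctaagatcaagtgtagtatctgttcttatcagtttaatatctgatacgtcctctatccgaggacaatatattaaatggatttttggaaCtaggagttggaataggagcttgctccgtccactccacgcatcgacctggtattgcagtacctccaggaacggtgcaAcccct

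The second set holds snoRNA genes. Rnu3b1 (chr11:87443237-87443452, plus) encodes U3, with capitals on TGATGA, the box C letters. Snora3 (chr7:109520120-109520251, plus) is an H/ACA snoRNA inside the ribosomal protein gene Rpl27a, with capitals on ACA in its last 6 bases. Gm23925 stands in the table as 2 entries on chromosome 2, a snoRNA (chr2:158359798-158359929, minus) and a lincRNA (chr2:158359797-158359928, minus). Capitals in these 2 mark the single base that only that entry holds.
Rnu3b1: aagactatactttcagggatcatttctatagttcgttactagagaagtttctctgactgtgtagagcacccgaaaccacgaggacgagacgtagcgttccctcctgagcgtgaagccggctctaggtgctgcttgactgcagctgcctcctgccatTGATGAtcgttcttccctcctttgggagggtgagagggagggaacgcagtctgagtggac
Snora3: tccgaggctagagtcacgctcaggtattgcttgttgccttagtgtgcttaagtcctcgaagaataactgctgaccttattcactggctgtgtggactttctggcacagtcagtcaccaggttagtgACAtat
Gm23925 snoRNA entry: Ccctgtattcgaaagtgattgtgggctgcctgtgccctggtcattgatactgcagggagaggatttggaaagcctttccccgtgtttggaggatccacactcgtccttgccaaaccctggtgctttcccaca
Gm23925 lincRNA entry: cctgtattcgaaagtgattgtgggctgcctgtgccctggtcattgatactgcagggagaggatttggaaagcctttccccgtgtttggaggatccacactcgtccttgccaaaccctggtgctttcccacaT

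On the sense strand of the annotated transcripts, ATTTNTGG was found in 29 of the 40 snRNA genes, against 104 of 1383 annotated snRNA genes (7.52%). These counts take each copy singly, and among the 40 are 18 U1 and 11 U2 genes or near-copies, so they are not separate observations. TGATGA was found in 9 of 10 genes whose symbol gives box C/D and in 0 of 26 whose symbol gives box H/ACA, against 393 of 1507 annotated snoRNA genes (26.1%). ACA within the last 6 bases was found in 24 of the 26 H/ACA genes and 0 of the 10 C/D genes, against 690 of 1507 annotated snoRNA genes (45.8%). Of the 43 snoRNA genes whose symbol gives no class, 36 had that ACA and 4 had TGATGA. The remaining snoRNA gene, Scarna10, is a small Cajal body RNA.

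Short genes were not listed. None of the 193 annotated snRNA and 458 annotated snoRNA genes shorter than 100 bases stood in the table, and the shortest member had 116 bases. Annotated C/D genes have a median length of 86 bases, and 12 of 108 were listed. Annotated H/ACA genes have a median of 132 bases, and 37 of 42 were listed. The genes just inside the minimum were Gm23238 and Gm26493, with a second highest value of 10.7 and 10.9, and those just outside were Gm22786 with 9.7 and Snora41 with 8.43.

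Values in the table are normalised read counts, that is reads divided by 1 size factor per library. Per 100 bases of annotated length, the mean level over the 11 libraries ran from 3.4 to 3111 normalised counts, with a median of 57.5. The median was 1070 for snRNA genes, 702 for C/D, 29.3 for H/ACA and 39.7 for snoRNA genes of no stated class. These medians count each copy of a gene singly. Of the 40 snRNA genes, 18 are U1 genes or near-copies and 11 are U2 genes or near-copies. Among C/D genes, the U3 genes stood at 1127 to 2964 and the rest at 21.6 to 278, so 702 describes neither. At the top stood Gm25939, a U2-like gene, at 3111, followed by the U3 genes Rnu3b1 and Rnu3b3 at 2964, the U1-like Gm22614 at 2719 and Gm25890 at 2585. Rnu3a, another U3 gene, stood at 2498. Among H/ACA genes Snora73a led at 2281, ahead of Snora74a at 1314 and Snora73b at 1234. Snora73 RNA is also known as U17, and its yeast counterpart is needed to make the small-subunit ribosomal RNA. Scarna10 stood at 1052, and the unclassed Gm22988, inside the translation factor gene Eif4a1, at 1187.

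**Figure D1:**
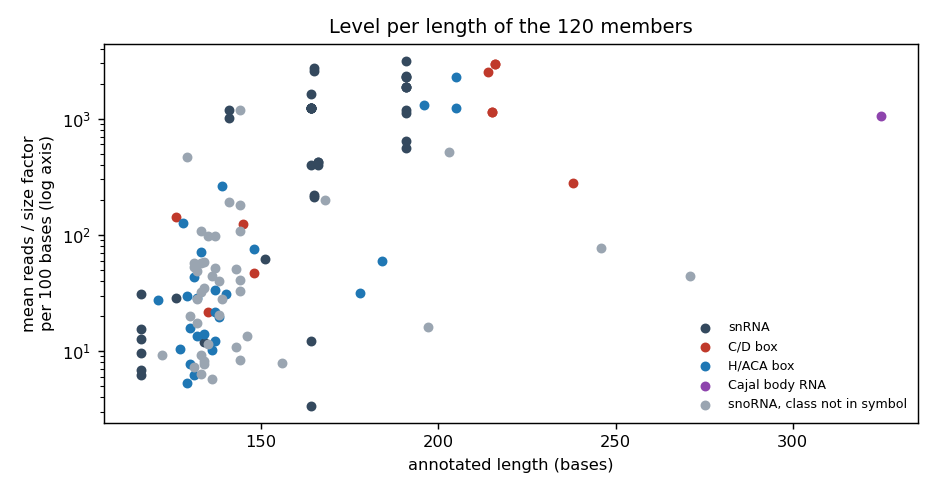
Mean normalised count per 100 bases over 11 libraries (log axis) against annotated length in bases, 1 point for each of the 120 genes, coloured by class. snRNA genes have a median of 1070 and H/ACA genes a median of 29.3, and the longest point is Scarna10 at 325 bases.

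The spread between libraries was set against that of other genes of like level. Of genes with a mean of at least 1000, the 34 members had a median coefficient of variation of 15.1% over the 11 libraries, against 6.11% for 3531 tested genes. With a mean of 100 to 1000 the values were 15.5% for 23 members and 9.67% for 6776 genes. Those 23 include near-identical copies, such as Rnu1b1 and Rnu1b2, beside single genes. With a mean of 10 to 100 the values were 26.5% for 55 members and 25.4% for 3649 genes, and 48 members had a mean under 50. The 34 members of highest mean include 23 snRNA genes, all in sets of near-identical copies that share reads. They are therefore not 34 separate observations. The coefficient spans the 4 groups, so it also includes differences between them.

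Copies of a gene share reads, and 50 members (33 snRNA and 17 snoRNA) fell into 14 copy groups, linked by an edit distance of at most 5% or by overlap of over 80% on the same strand. Of the 24 members with an identical twin, 13 had equal values in all libraries. In the other sets 1 or 2 libraries differed. The identical U1 genes Gm22614 and Gm25890 had equal values in other libraries but 4348 and 1907 in wild-type hypoxia 3, 2.28 times apart. The identical U2 genes Gm23971 and Gm24950 differed in wild-type normoxia 2, with 8206 against 3019.7, and in knockout hypoxia 3, with 6260.2 against 1932. The near-copy Gm24924, 1 edit from the U1 gene Rnu1a1, had 0 in 9 libraries, 37.3 in wild-type hypoxia 3 and 181 in knockout hypoxia 2. How the authors' counting assigned reads that fit several loci is not given in the sources used here, so single entries of a copy group are uncertain, and sums over each group were fitted beside them. Summing gave 84 units, the 14 groups and 70 single genes.

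Reads per library numbered 18707697 to 33613328, and all hypoxia libraries were deeper than all normoxia libraries. Members took 0.394% of reads in wild-type hypoxia 3 to 0.577% in knockout normoxia 3. Arntl lay at 264 to 328 normalised counts in wild-type and 98.8 to 134 in knockout libraries, with log2 differences of -1.29 in normoxia (SE 0.10, limma adjusted p = 2.24e-06) and -1.31 in hypoxia (SE 0.09, adjusted p = 4.96e-07). Of 8 myoblast markers, 7 stood between 1123 (Pax7) and 9502 (Myod1) in all libraries, while Msc was at 0 to 3.11. limma called Myf5 higher in knockout in normoxia (0.59, adjusted p = 3.06e-04) and in hypoxia (0.51, adjusted p = 3.18e-04), Itga7 higher in knockout in hypoxia (0.23, adjusted p = 0.00821), and Vcam1 lower with hypoxia in knockout (-0.25, adjusted p = 0.00495). The 5 endothelial markers summed to 20.4 to 61.4, with Pecam1 at 7.76 to 25, Tek at 0.908 to 28.8, Kdr at 3.63 to 14.8, Cdh5 at 0 to 9.08 and Emcn at 0 to 2.17. The 3 leukocyte markers listed summed to 8.58 to 34.7, with Cd68 at 4.77 to 32.6, Lyz2 at 0 to 7.5 and Itgam at 0 to 4.28. The part of these markers in the differences of snRNA and snoRNA genes was not tested.

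In wild-type cells, hypoxia changed no member past the threshold. Differences were tested with limma on log2(value + 1), and a gene was called at a Benjamini-Hochberg adjusted p under 0.05 over all 14729 tested genes. limma called 0 members up and 0 down, where it called 1.7% of all tested genes up and 0.468% down. At an unadjusted p under 0.05 there were 20 members, against 13.6% of tested genes. edgeR also called 0, and DESeq2 called 1, Gm22988, down. Gm22988 was lower in each hypoxia library (1580.2, 1580 and 1594) than in normoxia (1946 and 2096), a log2 difference of -0.35 (SE 0.10, limma adjusted p = 0.12). The median log2 difference was -0.10 over members, 76 of 120 below 0, against -0.00 over all tested genes, 50.6% of them below 0. All hypoxia libraries lay under all normoxia libraries for 25 members and over them for 9, against 14.4% and 15.4% of tested genes. By class the median was -0.16 for snRNA, 0.08 for C/D, -0.13 for H/ACA and -0.08 for unclassed snoRNA genes. With copies summed, limma called 0 of 84 units, where it called 1.72% of tested units up and 0.47% down. An unadjusted p under 0.05 was reached by 8 units. Hypoxia lay under normoxia with no overlap for 15 units and over it for 7. Shares of all tested units with no overlap, or with an unadjusted p under 0.05, are not given here or for the comparisons below. Of the 84 units, 52 were below 0, and the median was -0.07.

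In knockout cells, 5 members fell and 2 rose with hypoxia. Those called down were Gm22614, Rnu1b2, Gm24497, Snora3 and Gm25788, and those called up were Gm23143 and Gm23925, while limma called 0.937% of all tested genes down and 3.15% up. The median log2 difference over members was -0.26, with 103 of 120 below 0, against -0.01 over all tested genes, 51.4% of them below 0. Members below 0 were the majority in each class: 34 of 40 snRNA genes were below 0 (median -0.27), 25 of 26 H/ACA genes (median -0.33), 37 of 43 unclassed snoRNA genes (median -0.25) and 6 of 10 C/D genes (median -0.18). All libraries of hypoxia lay under all libraries of normoxia for 45 members and over them for 4, against 10.7% and 11.9% of tested genes. At an unadjusted p under 0.05 there were 43 members, 40 of them lower, against 17.5% of tested genes. These counts take each copy singly, though copies share reads. Over the 84 units with copies summed, hypoxia lay under normoxia with no overlap for 21 and over it for 3. An unadjusted p under 0.05 was reached by 21 units, and no share of all tested units is given beside these unit counts. DESeq2 called 14 members down, all of them U1 or U2 genes or copies of them, and 0 up, giving no adjusted p for Snora3, Gm23143 or Gm23925. Of these 14, 7 are U1 genes of identical sequence with equal values in all 11 libraries, so their calls are not separate results. With copies summed, limma called 1 of 84 units down (Snora3; 0.905% of tested units) and 1 up (Gm23143; 3.19%), 72 units were below 0 and the median was -0.28. Without wild-type hypoxia 3, the library with the lowest member share, the count called down was 14, and without knockout normoxia 1 it was 3. The shares of all tested genes called by DESeq2, or with a library left out, are not given here.

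Summed over the 40 snRNA genes, levels were 72069 to 81351 in knockout normoxia and 57887 to 63909.8 in knockout hypoxia, with no overlap. In wild-type they were 71480.1 to 78025 in normoxia and 55837 to 76206 in hypoxia, which overlap. The 80 snoRNA genes summed to 42195 to 50939.7 in knockout normoxia and 38417 to 46671 in knockout hypoxia, which overlap too. Other small structured RNAs, such as the signal recognition particle RNAs Rn7s1 and Rn7s2, the transcription regulator Rn7sk and the RNase subunits Rmrp and Rpph1, summed to 1844946 to 2009398 in knockout normoxia and 1904298 to 2128073 in knockout hypoxia. None of the 12 tested genes of that list was called by limma in any comparison.

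**Figure D2:**
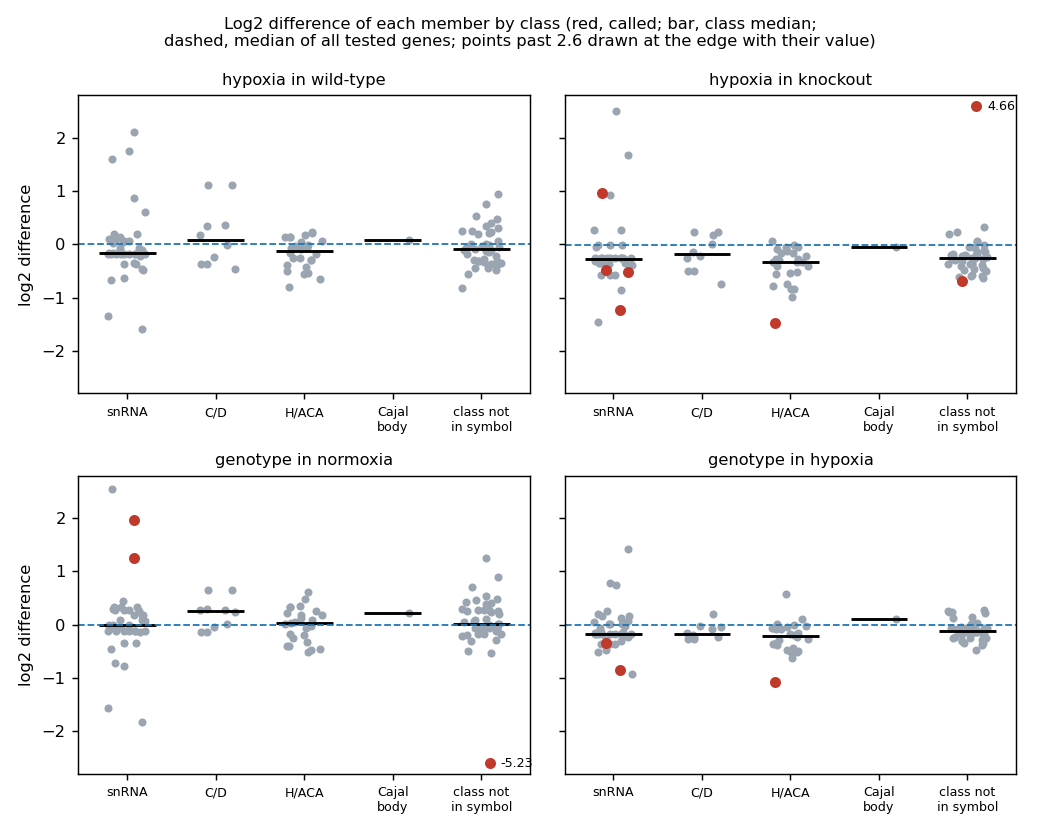
Log2 difference of each of the 120 genes by class in 4 comparisons, with called genes in red, class medians as bars and the median of all tested genes dashed; 2 values of Gm23925, 4.66 and -5.23, are drawn at the edge with their value. In knockout hypoxia each of the class medians lies under the dashed line, from -0.05 for the single Cajal body RNA to -0.33 for H/ACA genes.

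Between genotypes in normoxia, few members differed. limma called 2 up in knockout (Gm24497 and Gm23287) and 1 down (Gm23925), where it called 3.44% of all tested genes up and 5.66% down. The median log2 difference was 0.02 over members, 55 of 120 below 0, and 0.00 over all tested genes, 48.9% of them below 0. At an unadjusted p under 0.05 there were 18 members, against 23.4% of tested genes. Groups did not overlap for 26 members higher and 6 lower in knockout, against 18.8% and 19.6% of tested genes. edgeR called 1 up and 2 down, and DESeq2 1 up and 1 down. Without wild-type normoxia 2 limma called 0 up, and without wild-type hypoxia 3 it called 5. With copies summed, 1 unit was called up (Gm23287; 3.48% of units) and 0 down (5.69%; 8 units had an unadjusted p under 0.05, and edgeR called 0).

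Between genotypes in hypoxia, limma called 3 members down in knockout (Gm22614, Gm24497 and Snora3) and 0 up, where it called 5.61% of all tested genes down and 3.33% up. At an unadjusted p under 0.05 there were 13 members, all lower in knockout, against 21% of tested genes in either direction. Groups did not overlap for 6 members lower and 1 higher in knockout, against 13.9% and 12.4% of tested genes. edgeR called the same number of members, 3 down and 0 up, and DESeq2 called 2 down and 0 up. The median log2 difference was -0.15, with 93 of 120 below 0, against 0.00 and 48.6% for all tested genes. Without wild-type hypoxia 1 the count down was 0, and without wild-type hypoxia 3 it was 8. With copies summed only Snora3 was called down (5.7% of units down and 3.38% up), and edgeR on the sums called the same unit. Of the 84 units, 2 had an unadjusted p under 0.05. Groups did not overlap for 3 units lower and 1 higher in knockout, with no share of all tested units given here.

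Fibroblast markers moved with genotype. limma called 7 of 8 lower in knockout in both comparisons, with median log2 differences of -0.74 in normoxia and -0.65 in hypoxia, and 3 of 8 higher in knockout hypoxia than in knockout normoxia. Their summed level was 17595 to 19632 in wild-type normoxia, 19555 to 19796 in wild-type hypoxia, 13179 to 13843 in knockout normoxia and 15122 to 15871 in knockout hypoxia. None of the 8 was at 0 in all libraries, and the lowest, Lum, was at 0.908 to 23.6. Their part in the differences of snRNA and snoRNA genes was not tested.

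The difference between the responses of the genotypes (hypoxia effect in knockout minus that in wild-type) was called by limma for 1 member, Gm23925, upward, and for 0 downward. It was the single call among all tested genes, 0.00679% upward and 0% downward. At an unadjusted p under 0.05 there were 17 members, against 5.32% of tested genes. edgeR called 0, and DESeq2 called Gm23925 upward and Gm24497 downward. The median over members was -0.15, with 97 of 120 below 0, against 50.5% of all tested genes. With copies summed 0 units were called (0% of units; 6 had an unadjusted p under 0.05), by edgeR as well.

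U1 genes carried 2 of the 5 falls in knockout hypoxia. Gm22614 had 4725 and 4801 normalised counts in wild-type normoxia, 5178, 4201 and 4348 in wild-type hypoxia, 5121, 4587 and 5556 in knockout normoxia, and 3709, 3772 and 3359 in knockout hypoxia. The 3 knockout hypoxia libraries were the lowest of all 11. Its log2 difference was -0.49 for hypoxia in knockout (SE 0.08, adjusted p = 0.00296) and -0.34 for genotype in hypoxia (SE 0.08, adjusted p = 0.0169). Its identical twin Gm25890, which had only 1907 in wild-type hypoxia 3, gave -0.49 (SE 0.25, adjusted p = 0.328) and 0.06 (SE 0.25, adjusted p = 0.937). The call for genotype in hypoxia was lost without knockout hypoxia 3 or wild-type hypoxia 1, with adjusted p up to 0.0781.

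Rnu1b2 had 395 and 365 in wild-type normoxia, 355, 358 and 349.8 in wild-type hypoxia, 438, 399.8 and 460.2 in knockout normoxia, and 281, 333 and 297 in knockout hypoxia. The knockout hypoxia libraries were again the lowest of all 11, and the log2 difference was -0.51 (SE 0.08, adjusted p = 0.00256), a call kept when any 1 library was left out. Its identical twin Rnu1b1 gave -0.51 (SE 0.24, adjusted p = 0.285).

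Summed over the 22 entries of the U1 copy group, levels were 30558 and 33429 in wild-type normoxia, 32478, 29348 and 23699 in wild-type hypoxia, 31861, 29417 and 33887 in knockout normoxia, and 26352, 25438 and 23830.3 in knockout hypoxia. Knockout hypoxia lay under knockout normoxia with no overlap, while wild-type hypoxia 3 was the lowest of all. The log2 difference in knockout was -0.33 (SE 0.09, adjusted p = 0.058), not called, and in wild-type -0.18 (SE 0.10, adjusted p = 0.479). Without wild-type hypoxia 1 or 3 the knockout difference passed the threshold, with adjusted p down to 0.00727. Genotype differences of the sum were -0.01 in normoxia and -0.17 in hypoxia (adjusted p = 0.325).

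U2 entries differed among themselves. Gm24497, in an intron of the non-coding gene D230017M19Rik, had 1463 and 1171 in wild-type normoxia, 3062, 2024 and 2201 in wild-type hypoxia, 3505, 2891 and 3000.2 in knockout normoxia, and 1667, 788 and 1784 in knockout hypoxia. Wild-type normoxia and knockout hypoxia were low, and the other groups were high with no overlap with them. It fell by 1.23 on the log2 scale with hypoxia in knockout (SE 0.24, adjusted p = 0.0101; 0.0503 without knockout normoxia 1) and was higher by 1.25 in knockout in normoxia (SE 0.27, adjusted p = 0.0102; 0.11 without wild-type normoxia 2). In hypoxia it was lower in knockout, at -0.85 (SE 0.24, adjusted p = 0.0445), a call kept without 2 of the 11 libraries only, those of knockout hypoxia 1 and 3. The wild-type hypoxia difference was 0.87 (SE 0.27, adjusted p = 0.15), called without knockout hypoxia 2 (adjusted p = 0.00704), and the difference between effects was -2.10 (SE 0.36, adjusted p = 0.284; 0.0156 without knockout hypoxia 2).

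Summed over the 12 entries of the U2 copy group, which holds Rnu2-10 and Gm24497, levels were 37332 and 40950.1 in wild-type normoxia, 39608, 36673 and 29610.1 in wild-type hypoxia, 37512, 39284 and 43228 in knockout normoxia, and 34618, 30451 and 31169 in knockout hypoxia. The pattern of Gm24497 was not seen in the sum, where knockout hypoxia lay under knockout normoxia and the wild-type groups overlapped. The log2 differences were -0.32 for hypoxia in knockout (SE 0.09, adjusted p = 0.0645; 0.0113 at the lowest without wild-type hypoxia 1 or 3), -0.16 for hypoxia in wild-type (SE 0.10, adjusted p = 0.541), 0.03 for genotype in normoxia and -0.13 for genotype in hypoxia (adjusted p = 0.464).

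**Figure D3:**
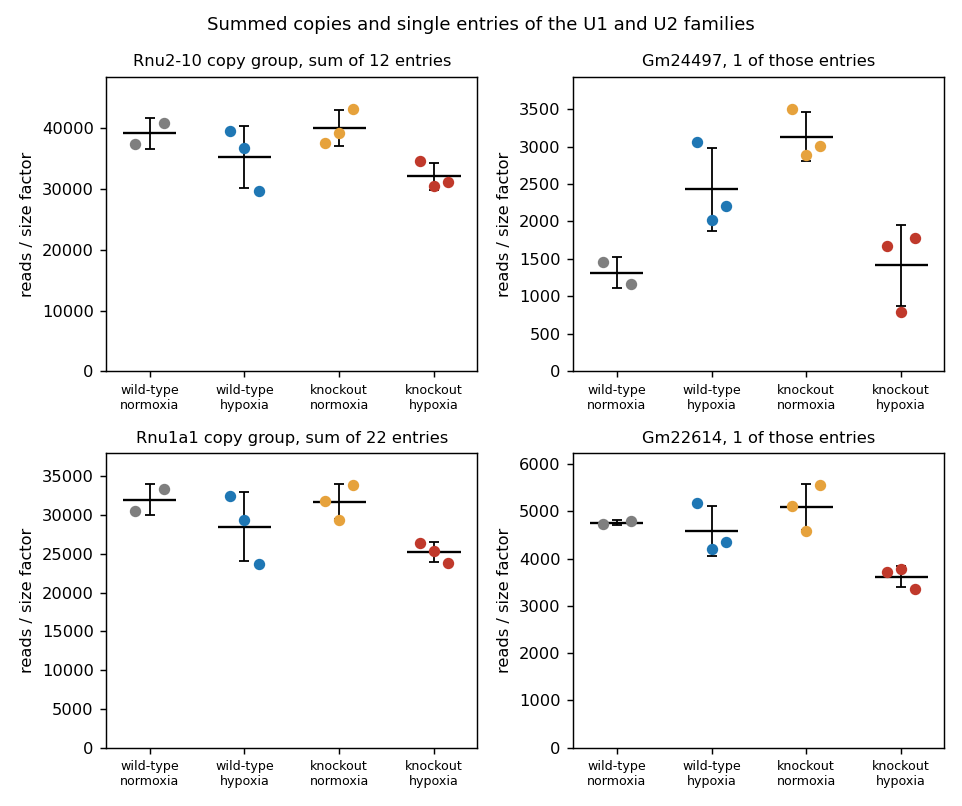
Normalised counts by group for the summed U2 and U1 copy groups (left) and for 1 entry of each, Gm24497 and Gm22614 (right); points are libraries, bars are group means with SD (n = 2 for wild-type normoxia, otherwise n = 3). The U2 sum spans 29610.1 to 43228 while Gm24497 spans 788 to 3505 and changes order between groups.

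U5-like genes were low. Gm23143 and Gm23287 are short snRNA genes whose nearest named gene is the U5 gene Rnu5g. Gm23143 had 19.3 and 18.3 in wild-type normoxia, 19.1, 22.5 and 18.7 in wild-type hypoxia, 9.93, 11.2 and 11.9 in knockout normoxia, and 21.3, 20.9 and 25.6 in knockout hypoxia. The 3 knockout normoxia libraries were the lowest of all, and it rose by 0.97 on the log2 scale with hypoxia in knockout (SE 0.24, adjusted p = 0.0355). The call was kept without 3 of the 11 libraries and lost without each of the other 8 (adjusted p up to 0.137), and edgeR on copy sums gave an adjusted p of 0.0502.

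Gm23287 had 1.07 and 1.14 in wild-type normoxia, 14.3, 7.73 and 4.66 in wild-type hypoxia, 6.21, 6.25 and 9.77 in knockout normoxia, and 6.79, 12.7 and 8.2 in knockout hypoxia. The 2 wild-type normoxia libraries, with 2 reads in all, were under all others. It was higher in knockout in normoxia by 1.97 (SE 0.51, adjusted p = 0.0283); by reads, 19 against 2, the ratio of levels was 6.8 with a 95% counting interval of 1.64 to 60.2, which covers counting error only. The call was lost without any 1 library of either normoxia group, with adjusted p up to 0.114.

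Rnu5g itself had 0 in wild-type normoxia 1, wild-type hypoxia 3 and knockout hypoxia 1, and up to 36.2 elsewhere, and its near-copy Gm25313, 3 edits away, had 0 in wild-type hypoxia 1 and knockout normoxia 1. Their sum was 17.4 to 36.2 in all 11 libraries. With linking at 10% edit distance, 7 U5-like entries including Gm23143 and Gm23287 formed 1 group. That group had 97.4 and 77.6 in wild-type normoxia, 135, 101 and 87.8 in wild-type hypoxia, 58.3, 102 and 101 in knockout normoxia, and 95.1, 105 and 108 in knockout hypoxia. The groups overlapped in each of the 4 pairwise comparisons. By limma the log2 difference of the sum was 0.28 for hypoxia in knockout (adjusted p = 0.552) and -0.04 for genotype in normoxia (adjusted p = 0.944), neither called. Gm23143 and Gm23287 had means of 18.1 and 7.17 over the 11 libraries, a minor part of this sum. It therefore cannot decide about either gene alone.

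The minor spliceosome genes were low to moderate and not called in any comparison. Rnu12 (U12) had 84.6 and 109.6 in wild-type normoxia, 151, 103 and 74.6 in wild-type hypoxia, 79.4, 83.7 and 122 in knockout normoxia, and 86.3, 68.1 and 73.8 in knockout hypoxia. Its groups overlapped in each comparison. Rnu11 (U11) had 16.1 and 22.8 in wild-type normoxia, 12.4, 14.8 and 9.33 in wild-type hypoxia, 14.9, 15 and 5.43 in knockout normoxia, and 24.2, 15.4 and 25.6 in knockout hypoxia. Hypoxia lay under normoxia in wild-type and over it in knockout, with log2 differences of -0.64 (SE 0.43, adjusted p = 0.567) and 0.92 (SE 0.38, adjusted p = 0.226), and a difference between effects of 1.56 (SE 0.57, adjusted p = 0.905).

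Among box C/D genes, U3 was the most abundant. Rnu3b1 and Rnu3b3, equal in each library, had 7076 and 8545 in wild-type normoxia, 6648, 7075 and 4639 in wild-type hypoxia, 5935, 7738 and 7699 in knockout normoxia, and 5779, 4628 and 4668 in knockout hypoxia. Knockout hypoxia lay under knockout normoxia, with a log2 difference of -0.50 (SE 0.15, adjusted p = 0.0825). Rnu3b2 and Rnu3b4, 1 edit away, went the other way in wild-type, with 1902 and 956 in normoxia and 5491, 2251 and 2005 in hypoxia (log2 difference 1.11, SE 0.36, adjusted p = 0.174).

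Summed, the U3b copies gave 17955 and 19002 in wild-type normoxia, 24279.6, 18651 and 13288 in wild-type hypoxia, 15765, 18961 and 21089 in knockout normoxia, and 17222, 13652 and 14302 in knockout hypoxia, with overlap between normoxia and hypoxia in both genotypes and log2 differences of -0.02 (adjusted p = 0.976) and -0.30 (SE 0.17, adjusted p = 0.37). Rnu3a, at 85.2% identity to Rnu3b1, gave -0.25 in knockout hypoxia (SE 0.16, adjusted p = 0.478). Snord118 (U8), which in Xenopus is needed to process the large subunit ribosomal RNAs, had 31.1 and 33.1, then 29.5, 23.2 and 17.9, in wild-type normoxia and hypoxia, and 28.5, 43.7 and 44.5, then 32, 16.3 and 21.5, in knockout (log2 difference -0.74, SE 0.28, adjusted p = 0.185), where the groups overlapped. Snord22, inside Snhg1, ranged from 139 to 239.7 and Snord15b, inside the ribosomal protein gene Rps3, from 137 to 221, and neither was called.

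Of the 26 H/ACA genes, Snora3 was the 1 called. It had 52.5 and 70.8 in wild-type normoxia, 41, 25.3 and 39.6 in wild-type hypoxia, 39.7, 46.2 and 53.2 in knockout normoxia, and 16.5, 10.9 and 22.5 in knockout hypoxia. Each knockout hypoxia library was under each other library, and wild-type hypoxia was under wild-type normoxia. It fell by 1.47 on the log2 scale with hypoxia in knockout (SE 0.27, adjusted p = 0.00722), a call kept when any 1 library was left out (-1.71 to -1.21). In hypoxia it was lower in knockout by -1.07 (SE 0.27, adjusted p = 0.0252), lost without knockout hypoxia 1 or 2 or wild-type hypoxia 1 or 3, with adjusted p up to 0.108. In wild-type the hypoxia difference was -0.80 (SE 0.31, adjusted p = 0.258), and the difference between effects was -0.67 (SE 0.41, adjusted p = 0.917). These rest on 12 to 22 reads in the knockout hypoxia libraries and 32 to 49 in knockout normoxia.

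Rpl27a, whose annotation contains Snora3, differed by -0.02 with hypoxia in knockout (SE 0.04, adjusted p = 0.869) and by 0.01 between genotypes in hypoxia (adjusted p = 0.953). Gm24888, another snoRNA gene within Rpl27a, went from a mean of 30.5 in knockout normoxia to 19.5 in knockout hypoxia (log2 difference -0.64, SE 0.27, adjusted p = 0.237). The closest listed entry to Snora3, Gm24698, is 7 edits away and had 2.86 to 8.69. Summed with it, Snora3 fell by 1.25 with hypoxia in knockout (SE 0.23, adjusted p = 0.00714), the 1 unit still called after linking at 10% edit distance, and differed by -0.78 between genotypes in hypoxia (adjusted p = 0.0542).

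**Figure D4:**
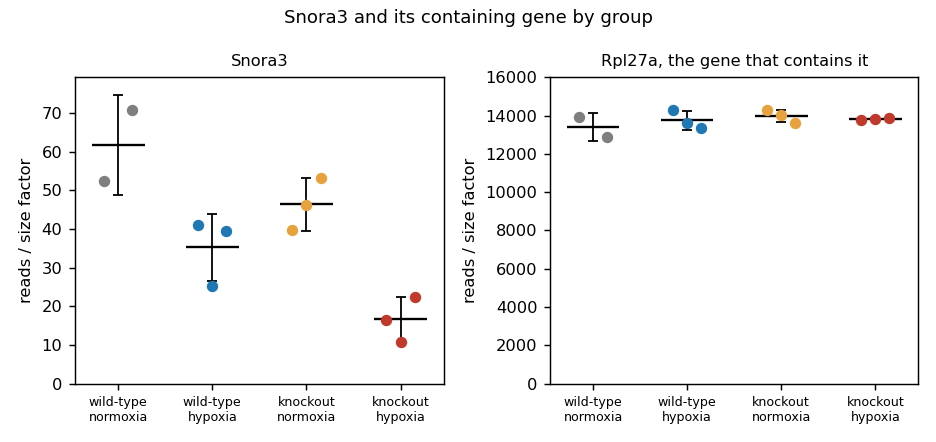
Normalised counts of Snora3 (left) and of Rpl27a, the gene that contains it (right), by group; points are libraries, bars are group means with SD (n = 2 for wild-type normoxia, otherwise n = 3). Snora3 lies at 10.9 to 22.5 in knockout hypoxia, under all other libraries, while Rpl27a differed by -0.02 on the log2 scale.

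The other H/ACA genes were not called in knockout hypoxia. Snora33, inside the ribosomal protein gene Rps12, gave -0.98 (SE 0.47, adjusted p = 0.302), Snora52, inside Rplp2, -0.78 (SE 0.27, adjusted p = 0.15), and Snora23, inside the import receptor gene Ipo7, -0.51 (SE 0.15, adjusted p = 0.0727). Snora73a was the 1 H/ACA gene above 0, at 0.06 (SE 0.08, adjusted p = 0.769), and with Snora73b, 7 edits away, it summed to 6620.1 to 7339 in knockout normoxia and 6585 to 7952 in knockout hypoxia. Snora74a had 2618 to 2873 in knockout normoxia and 2355 to 2779 in knockout hypoxia. Scarna10 had 3439.8 to 3872 and 3113 to 4122, with a log2 difference of -0.05 (SE 0.08, adjusted p = 0.822). In each of these 3 the groups overlapped.

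Gm25788, an unclassed snoRNA gene in an intron of the poly(A)-binding protein gene Pabpc4, had 84.6 and 85.6 in wild-type normoxia, 76.2, 62.6 and 49.7 in wild-type hypoxia, 74.5, 78.7 and 92.3 in knockout normoxia, and 55.3, 47.2 and 48.2 in knockout hypoxia. Hypoxia lay under normoxia in both genotypes with no overlap. In knockout it fell by 0.69 on the log2 scale (SE 0.17, adjusted p = 0.0342), and in wild-type the difference was -0.45 (SE 0.19, adjusted p = 0.301). The call was kept without 4 of the 11 libraries and lost without wild-type hypoxia 2 or any 1 knockout library (adjusted p up to 0.111). Summed with its copies Gm22154, 4 edits away, and Gm24620, the difference was -0.54 (SE 0.19, adjusted p = 0.152).

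Gm23925 gave the values of largest size, and its 2 entries moved against each other. The snoRNA entry had 37.5 and 35.4 in wild-type normoxia, 44.8, 34.4 and 26.4 in wild-type hypoxia, 0, 0 and 0 in knockout normoxia, and 31, 28.2 and 16.4 in knockout hypoxia. Knockout normoxia stood apart, with 0 reads in each of its 3 libraries. Against a floor of 3 reads per library, wild-type normoxia was at least 10.2-fold higher than knockout normoxia, and knockout hypoxia at least 7.05-fold higher. By limma it rose by 4.66 with hypoxia in knockout (SE 0.33, adjusted p = 1.34e-06), was lower by -5.23 in knockout in normoxia (SE 0.37, adjusted p = 1.00e-06), and had a difference between effects of 4.74 (SE 0.50, adjusted p = 0.00368), all fitted values that depend on the added 1.

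The lincRNA entry, which covers the same bases but 1, had 35.3 and 34.2 in wild-type normoxia, 42.9, 33.7 and 25.7 in wild-type hypoxia, 65.8, 102 and 94.4 in knockout normoxia, and 30.1, 27.2 and 16.4 in knockout hypoxia. It was highest where the snoRNA entry was 0, and within 3 counts of the snoRNA entry in each other library. Summed, the entries had 72.8 and 69.6, then 87.7, 68.2 and 52.1 in wild-type normoxia and hypoxia, and 65.8, 102 and 94.4, then 61.1, 55.4 and 32.8 in knockout. On the sum, limma gave -0.83 for hypoxia in knockout (SE 0.25, adjusted p = 0.0887), 0.27 for genotype in normoxia (SE 0.28, adjusted p = 0.618) and -0.76 for the difference between effects (SE 0.37, adjusted p = 0.918), so no call held and the sign of each turned.

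**Figure D5:**
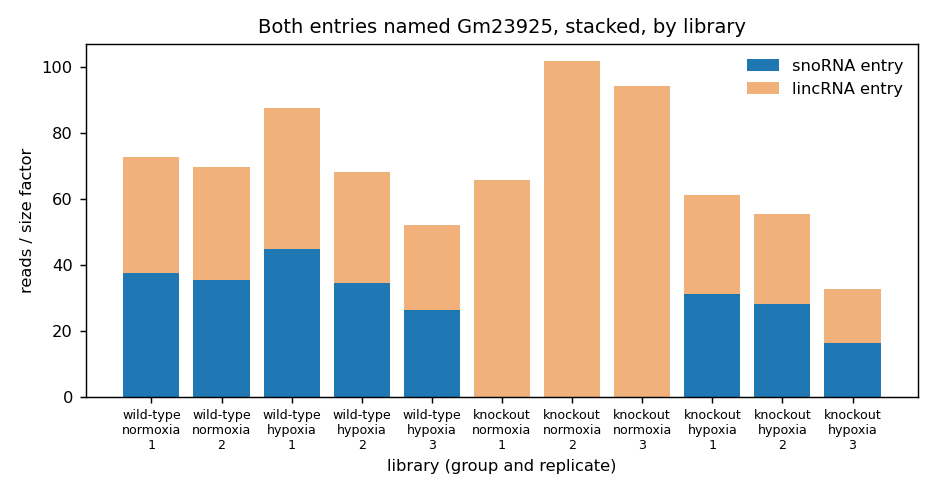
Normalised counts of the snoRNA entry (blue) and the lincRNA entry (orange) of Gm23925, stacked, in each of the 11 libraries. The snoRNA entry is 0 in the 3 knockout normoxia libraries, where the lincRNA entry is at 65.8 to 102, and the stack spans 32.8 to 102 normalised counts.

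The snoRNA entry overlaps an annotated exon of Snhg17, the non-coding host gene that contains it. Snhg17 fell with hypoxia in wild-type from a mean of 710.2 to 558 (log2 difference -0.35, SE 0.07, limma adjusted p = 0.0198) and in knockout from 689.6 to 579 (-0.25, SE 0.06, adjusted p = 0.0412). Gm24411, the other snoRNA gene in Snhg17 and 8 edits from Gm23925, ranged from 3.72 to 15.2 and gave -0.32 and -0.48, not called. The tested genes most like the snoRNA entry, by Pearson correlation of log2 values over the 11 libraries, were Stard4 at 0.95 and Map4, Kmt2e, P3h1 and Ret at 0.93, while the lincRNA entry was at -0.81. All points share their libraries, and 3 of the 11 are the zeros.

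A containing gene on the same strand was annotated for 82 members (74 snoRNA and 8 snRNA). Of these, 38 overlapped, in part or in whole, an exon of any of its transcripts, and 44 lay in introns only. An overlap of this kind does not mean that the member lies within an exon of the main transcript. For 70 pairs both were tested. In knockout hypoxia the member lay below its containing gene in 59 of 70 pairs, with medians of -0.27 and -0.03, and in wild-type hypoxia in 41 of 70, with medians of -0.08 and 0.02. Between genotypes in hypoxia it lay below in 61 of 70, with medians of -0.14 and 0.04. Across the 70 pairs, which hold 53 containing genes and so are not independent, Pearson's r of the log2 differences was -0.24 in knockout hypoxia and -0.08 in wild-type hypoxia. Spearman's rank correlation was -0.10 and -0.09. The pairs include the snoRNA entry of Gm23925, at 4.66 in knockout hypoxia against -0.25 for Snhg17, and Pearson's r is sensitive to such a value. The containing genes that fell in knockout hypoxia were Snhg17, the polyamine enzyme gene Odc1 (log2 difference -0.24, SE 0.05, adjusted p = 0.0118) and the ribosomal protein gene Rpl6. Gm22748, within Odc1, gave -0.59 (SE 0.22, adjusted p = 0.169).

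Genes that make these RNAs, or whose proteins bind them, were called singly. Of all tested genes limma called 1.7% up and 0.468% down in wild-type hypoxia, 3.15% and 0.937% in knockout hypoxia, and 3.44% and 5.66% between genotypes in normoxia, shares at which lists of this size hold few or no calls, so the counts are no result about the lists. Of 12 tested C/D particle genes, limma called 1 in any comparison, the assembly ATPase gene Ruvbl2, up in wild-type hypoxia from 2082 to 2471 (log2 difference 0.25, SE 0.05, adjusted p = 0.0243). Of 6 H/ACA particle genes, 19 Cajal body and snRNA maturation genes and 17 Sm and LSm genes, 0 were called in any comparison by limma. Of 25 genes for snRNA transcription, the transcription factor gene Pou2f1 fell in wild-type hypoxia from 1059 to 758 (-0.48, SE 0.11, adjusted p = 0.0418). Of 26 genes for snRNA particle proteins, the U2 factor genes Sf3b1, in wild-type hypoxia (0.18, SE 0.04, adjusted p = 0.049), and Sf3a3, in knockout normoxia against wild-type (0.23, SE 0.06, adjusted p = 0.0198), were called up. Of 34 genes for RNA polymerase I and ribosomal RNA processing, Npm1 was higher in knockout in normoxia (0.21, SE 0.06, adjusted p = 0.0443).

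Of 13 tested non-coding host genes, limma called 1 down in each hypoxia comparison, where it called 0.468% of tested genes down in wild-type and 0.937% in knockout, and 1 up and 1 down in each genotype comparison, against 3.44% and 5.66% in normoxia and 3.33% and 5.61% in hypoxia. From counts of 1 nothing is read about the list. Snhg17 fell in both hypoxia comparisons. Gas5 was higher in knockout in normoxia, from 3924 to 4414 (0.17, adjusted p = 0.0292), Snhg5 was higher in knockout in hypoxia, from 869.8 to 1027 (0.24, adjusted p = 0.0378), and Rian was lower in knockout in normoxia (-0.21, adjusted p = 0.0295) and in hypoxia (-0.20, adjusted p = 0.0219).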

How the data were processed

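Total RNA of the 11 libraries was sequenced by the submitters after 6 h at 21% or 1% oxygen. Per the submitters' processing notes, the tools were HTSeq, RSEM, STAR, DESeq2, Picard and bcl2fastq with the build mm10; versions, the strand setting and the treatment of reads that fit several loci are not given in the sources used here. The deposited values are a signal, reads divided by 1 size factor per library by the authors, and after multiplying back, 100% of values were whole reads within 0.01 read. The number of columns left unused was 0. Types, positions and sequences came from GENCODE release 21 on GRCm38; the sequences of the U5-like genes are not reported here.

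Values were tested with limma 3.58.1 (R 4.3.3) as log2(value + 1), a scale that understates the change of low genes. One fit of 4 groups gave 5 two-sided comparisons, with Benjamini-Hochberg adjustment over 14729 genes with at least 10 in at least 2 libraries, and called at an adjusted p under 0.05. edgeR 4.0.16 and DESeq2 1.42.0 were run on the whole reads as alternatives. Other alternatives were another pseudocount, filter, scaling or sample set, each library left out in turn, and copies summed. Shares of all tested genes called are given for the main limma fit and for limma on copies summed at 5%. For the other alternatives they are not given. Members and lists were chosen with earlier results of these data known. Sums of copies, with links at 5% or 10% edit distance, were added after seeing the data.

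Members were named when called, when among the 10 snoRNA or 6 snRNA genes of highest mean, or when among the 3 of smallest p in a comparison with fewer than 3 called; Gm23925 was always named. Rnu11, Rnu12, Rnu5g and other family members, and H/ACA and C/D genes not called, were chosen after their values were seen. The test was run on simulated data before use. Pairs of libraries of a group differed by 4.36 to 21.1 in chi-square over degrees of freedom, so none was counted as a duplicate. At 18707697 to 33613328 reads per library, the median SE of a log2 difference over members was 0.21 to 0.24 in the comparisons of groups.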

Additional observations from a re-analysis of the deposited data

Results flagged for a closer look

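The snoRNA entry of Gm23925 differed between the genotypes in its response to hypoxia. The test of that difference, knockout effect minus wild-type effect, gave 4.74 on the log2 scale (SE 0.50, limma adjusted p = 0.00368), with 0 reads in each of the 3 knockout normoxia libraries and 16 to 49 in the others. Summed with the lincRNA entry at the same bases, the difference was -0.76 (adjusted p = 0.918).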

How the results depend on the processing

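No paired analysis was possible because the labels give no replicate numbers that groups share. Counts of members called by limma moved by more than 1.5 times as follows. Except for limma on copies summed at 5%, the shares of all tested genes called in these fits are not given. Such counts are therefore no result about the members. With DESeq2, 1 member was called down in wild-type hypoxia, 0 up and 14 down in knockout hypoxia, 1 up between genotypes in normoxia, and 1 down for the difference between effects; DESeq2 gave no adjusted p for Gm23143 or Gm23925 in knockout hypoxia. With edgeR, 1 was called up and 2 down between genotypes in normoxia and 0 up for the difference. With the 2 groups of a comparison fitted alone, there were 1 up and 1 down in wild-type hypoxia, 1 up and 13 down in knockout hypoxia, 5 up between genotypes in normoxia and 1 down in hypoxia. A pseudocount of 0.5 gave 1 up in wild-type hypoxia, and one of 5 gave 1 up and 2 down between genotypes in normoxia and 0 up for the difference. With no filter 1 was up in knockout hypoxia. A minimum of 50 gave 0 up there, 1 up and 0 down between genotypes in normoxia, and 0 up for the difference. Copies summed at 5% gave 1 up and 1 down in knockout hypoxia, 1 up and 0 down between genotypes in normoxia, 1 down between genotypes in hypoxia and 0 for the difference; at 10%, 0 up and 1 down, 0 and 0, 0 and 0. Among the differences that limma called, the sign turned under summing for Gm23925 in knockout hypoxia (-0.83 at 5%, -0.80 at 10%), between genotypes in normoxia (0.27, 0.23) and for the difference (-0.76, -0.70), and for Gm23287 between genotypes in normoxia (-0.04 at 10%). Among those not called, it turned in wild-type hypoxia for Gm24497 (0.87, and -0.16 for the U2 sum) and for Rnu3b2 and Rnu3b4 (1.11, and -0.02 for the U3b sum); others were not counted. With 1 library left out, counts up and down ranged over 0 to 1 and 0 to 1 in wild-type hypoxia, 1 to 2 and 3 to 14 in knockout hypoxia, 0 to 5 and 1 to 1 between genotypes in normoxia, 0 to 0 and 0 to 8 in hypoxia, and 1 to 1 and 0 to 1 for the difference, where the 1 down came without knockout hypoxia 2. The cause was not tested, and a fit with 1 wild-type normoxia library left assumes that it varies like the other groups. Other scalings moved the members' median by at most 0.04 and that of all genes by at most 0.01 on the log2 scale. Depth limits the 48 members with a mean under 50 normalised counts.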
